A study of Mus musculus with 12 samples.

Results

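Wnt signalling genes that act outside the cell or at its surface were examined as a set of 38 mouse genes, made up of 19 Wnt ligands, 10 Frizzled receptors and 9 secreted antagonists. They were chosen by gene family, with earlier results of these data known, from 21853 protein-coding genes with an annotated start site. The data were ChIP-seq peak lists from crypts and villi of the mouse small intestine. They come from a study of how the amino-terminal tail of histone H3 is cut in villi. Villi were scraped from the opened intestine, and crypts were released from the remaining tissue with EDTA. The labels name no treatment for either compartment, and they give neither strain, nor age, nor the number of animals behind a library. Antibodies against H3K4me3, H3K4me1, H3K27me3, H3K9me3 and H3K9me2 were used, with 1 library per compartment and modification, so that no difference between crypts and villi has a replicate check and no test is given. Chromatin of Drosophila S2 cells was added at 5% before the immunoprecipitation, but this spike-in does not enter the peak calls.

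H3K4me3 is found at the start sites of genes that are transcribed or ready to be, H3K4me1 at enhancers and around promoters, H3K27me3 at genes kept silent by Polycomb complexes, and H3K9me3 in heterochromatin. Wnt ligands are secreted lipid-bearing proteins that bind Frizzled receptors and, in the canonical branch, stabilise β-catenin. In the intestine this signal maintains the stem cells of the crypt base, with Wnt3 from Paneth cells and further ligands from the mesenchyme under the epithelium, and it falls off towards the villus. Secreted Frizzled-related proteins and Wif1 capture ligands, whereas Dickkopf proteins of the Dkk1 type block the Lrp co-receptors.

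A gene was said to carry a modification when a peak touched the window of 1 kb on either side of 1 of its start sites. The score of a peak is the authors' −log10 p-value, which ranks peaks within a list and cannot be set side by side between lists as an amount. Depth is unknown because the lists hold no read counts. Between the libraries, the H3K27me3 list of villi held 13797 peaks and that of crypts 7611, whereas the H3K4me3 lists held 16977 and 16489. All 9 enterocyte markers carried H3K4me3 in both compartments. Of 8 immune cell markers, 5 carried it in villi (Ptprc, Cd3e, Cd3g, Cd8a and Gzma) and 0 in crypts. Of 13 mesenchyme and smooth muscle markers, 3 carried it in crypts and 4 in villi. These are bulk tissues, in which fewer marked cells cannot be told apart from less modification per cell, nor 2 modifications on the same chromatin from 2 groups of cells that carry 1 each. For modifications nearer the end of the H3 tail, H3K4me3 among them, the study reports lower signal in villi and ascribes it to cutting. It reports H3K27me3 as retained at repressed promoters. The part of cutting in the differences between crypts and villi below was not tested.

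Promoter sequences from RefSeq (GRCm38.p6) were matched for 26 of the 38 genes. Each one below runs from 250 bases before the start site to 50 bases after it, 5′ to 3′ on the strand of the gene, and capitals mark CG dinucleotides, the setting in which Polycomb marks at promoters are usually found. They were chosen as examples of the patterns described in the results. Wnt10b (chr15:98778101-98778400, reverse strand) carried H3K27me3 without promoter H3K4me3. Wnt11 (chr7:98834862-98835161, forward strand) lay under H3K4me3 and H3K27me3 in both compartments, and Wnt3 (chr11:103773925-103774224, forward strand) had an H3K4me3 peak that was narrower in villi. Wnt8b (chr19:44493222-44493521, forward strand) had an H3K27me3 peak only in villi, and Sfrp5 (chr19:42202203-42202502, reverse strand) an H3K4me3 peak only in crypts. Fzd5 (chr1:64737701-64738000, reverse strand) had H3K4me3 without H3K27me3, and Dkk2 (chr3:132085042-132085341, forward strand) none of the 4 modifications.
Wnt11: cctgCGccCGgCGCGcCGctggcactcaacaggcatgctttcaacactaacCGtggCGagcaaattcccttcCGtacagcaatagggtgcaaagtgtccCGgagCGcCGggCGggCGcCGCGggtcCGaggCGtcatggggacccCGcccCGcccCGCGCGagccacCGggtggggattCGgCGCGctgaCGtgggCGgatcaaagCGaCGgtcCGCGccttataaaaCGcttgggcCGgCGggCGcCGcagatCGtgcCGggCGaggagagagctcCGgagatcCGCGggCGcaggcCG
Wnt10b: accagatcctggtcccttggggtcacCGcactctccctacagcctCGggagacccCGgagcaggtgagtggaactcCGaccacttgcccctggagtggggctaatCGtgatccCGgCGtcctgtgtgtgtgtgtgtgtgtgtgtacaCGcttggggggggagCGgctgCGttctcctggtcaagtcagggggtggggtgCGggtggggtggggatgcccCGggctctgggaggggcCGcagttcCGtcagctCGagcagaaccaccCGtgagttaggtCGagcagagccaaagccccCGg
Wnt3: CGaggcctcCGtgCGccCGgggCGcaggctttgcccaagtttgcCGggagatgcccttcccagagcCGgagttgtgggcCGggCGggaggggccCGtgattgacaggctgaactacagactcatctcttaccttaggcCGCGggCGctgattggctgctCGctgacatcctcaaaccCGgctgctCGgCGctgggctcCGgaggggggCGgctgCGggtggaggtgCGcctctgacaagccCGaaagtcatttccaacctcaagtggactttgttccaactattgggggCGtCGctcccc
Wnt8b: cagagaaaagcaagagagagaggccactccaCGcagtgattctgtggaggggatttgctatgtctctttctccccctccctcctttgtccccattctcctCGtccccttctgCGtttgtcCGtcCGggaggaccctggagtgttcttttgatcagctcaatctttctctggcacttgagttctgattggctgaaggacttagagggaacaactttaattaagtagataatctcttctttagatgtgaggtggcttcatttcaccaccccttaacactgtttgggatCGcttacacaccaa
Sfrp5: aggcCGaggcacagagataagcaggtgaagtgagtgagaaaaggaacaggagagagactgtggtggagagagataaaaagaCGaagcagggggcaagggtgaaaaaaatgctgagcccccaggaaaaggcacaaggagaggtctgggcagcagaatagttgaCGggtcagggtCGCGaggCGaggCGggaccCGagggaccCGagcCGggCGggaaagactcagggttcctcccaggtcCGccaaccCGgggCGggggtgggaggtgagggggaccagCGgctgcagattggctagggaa
Fzd5: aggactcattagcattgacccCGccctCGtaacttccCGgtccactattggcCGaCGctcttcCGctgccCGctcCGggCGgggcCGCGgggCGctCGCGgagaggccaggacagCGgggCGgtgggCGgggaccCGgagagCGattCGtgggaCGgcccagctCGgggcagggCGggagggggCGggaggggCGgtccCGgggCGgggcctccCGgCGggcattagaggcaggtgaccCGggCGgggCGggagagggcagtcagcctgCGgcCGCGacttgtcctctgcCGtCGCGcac
Dkk2: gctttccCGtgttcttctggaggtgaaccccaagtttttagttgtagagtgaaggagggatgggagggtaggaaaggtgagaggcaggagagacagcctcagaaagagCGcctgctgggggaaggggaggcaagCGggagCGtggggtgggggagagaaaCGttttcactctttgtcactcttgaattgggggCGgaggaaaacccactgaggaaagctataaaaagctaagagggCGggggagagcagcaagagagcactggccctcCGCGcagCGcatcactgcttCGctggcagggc
The Wnt11 promoter held 45 CG dinucleotides and that of Fzd5 38, against 24 in Wnt3, 18 in Wnt10b, 15 in Sfrp5, 11 in Dkk2 and 6 in Wnt8b. Over all 32851 promoters of the same length the median was 7. Since under 80% of the genes had a promoter sequence, CG content was not compared over the whole set. The letters CTTTG followed by 2 letters that are each A or T, forms of the core bound by Tcf factors at Wnt target genes, were searched on both strands. 1 match was found in each of Wnt11 and Wnt3 and none in the other 5, and 16.9% of all promoters held at least 1. The letters TATAAA, also searched on both strands, occurred once in Wnt11 and once in Dkk2, and in 13.6% of all promoters.

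Most of these genes carried H3K27me3. A promoter peak was called for 28 of 38 genes (73.7%) in crypts and 29 (76.3%) in villi, where the shares over all genes were 13.1% and 16.1%. H3K4me3 was called for 22 and 20 genes, 57.9% and 52.6%, beside 57.7% and 57.9% of all genes, and H3K4me1 for 30 and 31, 78.9% and 81.6%, beside 57.9% and 56.1%. No gene had a promoter H3K9me3 peak in either compartment, a call that 0.38% and 0.311% of all genes had, and no H3K9me3 or H3K9me2 peak touched any of the gene bodies. The shares with H3K4me3 were thus near or below those of all genes, whereas the shares with H3K27me3 and H3K4me1 were above those of all genes. The set held 60 of the 7611 H3K27me3 peaks of crypts and 62 of the 13797 of villi, where neighbouring peaks of crypts were in part joined into 1.

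**Figure D1:**
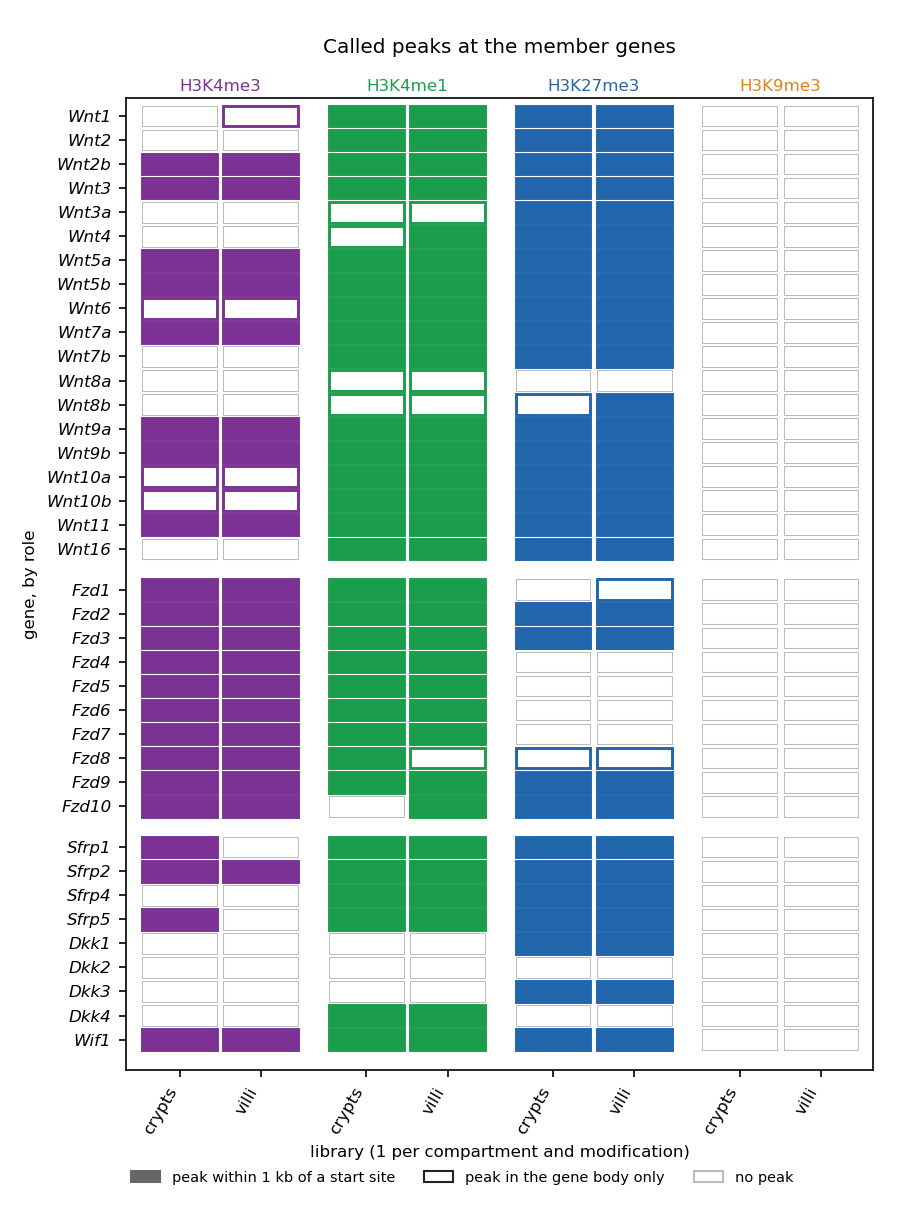
Calls of 4 modifications at the 38 genes, in rows by role, with 1 column per library. A filled box marks a peak within 1 kb of a start site, an open coloured box a peak in the gene body only. H3K27me3 fills most rows of ligands and antagonists and 4 of the 10 receptor rows, H3K4me3 fills all receptor rows, and the H3K9me3 columns are empty.

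The calls are given by role, as in the chart of calls, beside the shares of all genes above. Among ligands, H3K27me3 was called at 17 of 19 promoters in crypts and 18 in villi, and H3K4me3 at 8 in both. Wnt8a was the ligand without H3K27me3 in either compartment, and its nearest such peak lay 115264 bp from the start site in crypts and 114654 bp in villi. Among receptors, H3K4me3 was called at 10 of 10 promoters and H3K27me3 at 4 in both compartments. Among antagonists, H3K27me3 was called at 7 of 9 in both, and H3K4me3 at 4 in crypts and 2 in villi. Ligands and antagonists, which are made by particular sending cells, mostly carried the Polycomb mark, and the receptors carried the mark of active or poised promoters without exception.

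With the modifications combined, 15 genes carried H3K4me3 and H3K27me3 at the same start site in crypts (39.5%) and 13 in villi (34.2%), where 6.24% and 7.43% of all genes did so. A further 12 in crypts and 15 in villi carried H3K27me3 alone, and 6 in both carried H3K4me3 alone (15.8%). Over all genes H3K27me3 alone was found at 6.49% and 8.21%, and H3K4me3 alone at 51.1% and 50.1%. With the top 50% of each list by score, both modifications at the same start site were called at 0 of these genes in crypts and 0 in villi. Wnt5b, a ligand of the non-canonical branch, carried the 2 modifications at start sites far apart. Neither was called at 4 genes in crypts (Wnt8a, Wnt8b, Dkk2 and Dkk4) and at 3 in villi, where Wnt8b was no longer among them, beside 35.8% and 33.9% of all genes.

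**Figure D2:**
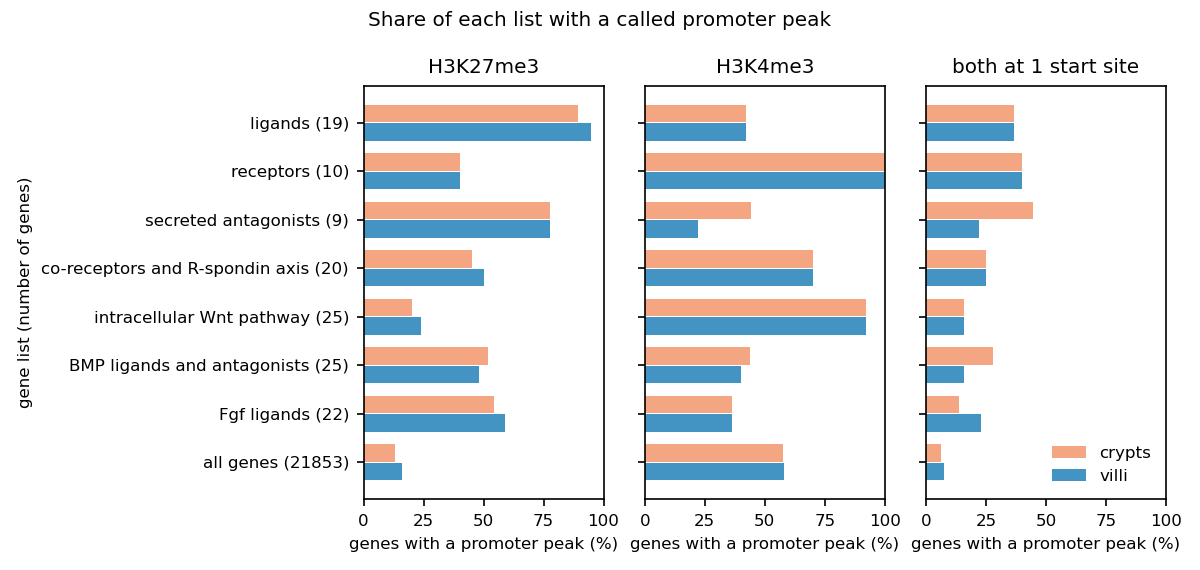
Share of the genes of each list with a promoter peak of H3K27me3, of H3K4me3, or of both at 1 start site (horizontal axes, in percent), for crypts and villi with 1 library each. H3K27me3 was called at 89.5% of ligands in crypts and 94.7% in villi, and at 13.1% and 16.1% of all genes, while H3K4me3 was called at 100% of receptors.

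Other lists of the pathway and of related signals are set beside these in the bar chart of shares. Of 20 genes of co-receptors and the R-spondin axis, 9 carried H3K27me3 in crypts and 10 in villi, and of 25 intracellular pathway genes 5 and 6. The first list also holds Frzb, Notum, Porcn and Wls, which are neither co-receptors nor of that axis. Of these, the secreted antagonists Frzb and Notum carried H3K27me3 in both compartments. H3K4me3 was called in both compartments at 14 of those 20 genes and at 22 of those 25. The H3K27me3 shares of the intracellular list, 20% and 24%, stand beside 13.1% and 16.1% of all genes. In other families of secreted signals, H3K27me3 was called at 13 and 12 of 25 BMP ligands and antagonists and at 12 and 13 of 22 Fgf ligands. R-spondins, secreted proteins that strengthen the Wnt signal, carried it at Rspo1, Rspo3 and Rspo4 in both compartments, and at Rspo2 in villi only.

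Among the ligands, both modifications were found at Wnt2b, Wnt3, Wnt5a, Wnt7a, Wnt9a, Wnt9b and Wnt11 in crypts and in villi. H3K27me3 without promoter H3K4me3 was found in both at Wnt1, Wnt2, Wnt3a, Wnt4, Wnt6, Wnt7b, Wnt10a, Wnt10b and Wnt16. Wnt3, which Paneth cells supply to neighbouring stem cells, and Wnt2b and Wnt5a, known from the mesenchyme, were thus in the first group. Wnt6, Wnt10a and Wnt10b had H3K4me3 peaks inside the gene but not at a start site, from 611 to 1306 bp wide. Wnt1 had such a peak in villi, of 520 bp and a score of 14.7, and none in crypts.

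The widest promoter H3K27me3 peak of the ligands with one in both compartments had medians of 3913 bp (crypts) and 6570 bp (villi), beside 2844 and 3990 bp over all genes. In crypts it ran from 1704 bp at Wnt4 and Wnt9b to 11921 bp at Wnt5a. The widest promoter peak of Wnt10a (chr1:74791516-74804179) was 5880 bp in crypts and 15379 bp in villi, that of Wnt11 (chr7:98835112-98855195) 3800 bp and 14552 bp, and that of Wnt5a 14330 bp in villi. For Wnt6 (chr1:74771892-74785322) the widths were 3894 bp and 8719 bp, and for Wnt3a (chr11:59248033-59290752), a canonical ligand, 4224 bp and 7845 bp. By the wider of the 2 compartments, which was villi for each of them, these were the 5 widest of the set, and all were ligands. In crypts alone the 5 widest were Wnt5a, Wnt1 (7690 bp), Wnt10a, Wnt10b (5648 bp) and Wnt7b (5640 bp), also ligands. Ligands made up 17 of the 28 genes with promoter H3K27me3 in both compartments. At Wnt10a, Wnt11, Wnt6 and Wnt3a, separate neighbouring peaks of crypts lay where villi had 1 peak. At Wnt11 a peak of 2598 bp over the promoter printed above and another of 3800 bp downstream lay where villi had the peak of 14552 bp. A further crypts peak, -4358 to -1436 bp from the most upstream start site, lay under it too. Within 10 kb of that start site, H3K27me3 peaks covered 9321 bp in crypts and 14552 bp in villi. Wnt10b had the highest-scoring H3K27me3 peak of the set, rank 5 of the list in crypts with a score of 58.1 and rank 28 in villi with 57.3.

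All 28 genes with promoter H3K27me3 in crypts kept it in villi, where 95.2% of all such genes kept it and 4.83% did not. The widest peak was wider in villi at 25 and narrower at 3, beside 80.9% wider over all genes. The 3 narrower ones were Wnt2b (4545 to 4482 bp), Wnt10b (5648 to 5500 bp) and Dkk3 (1224 to 1055 bp). Median widths of the set were 3319 bp (crypts) and 5653 bp (villi), with a median log2 ratio of 0.56, and over all genes 2844 and 3990 bp with 0.35. At 7 genes the villi peak was at least 2-fold wider (25.0%, beside 17.7% of all genes), namely Wnt9b, Wnt11, Dkk1, Wnt10a, Fzd10, Wnt6 and Wif1, and at none was it 2-fold narrower, beside 1.47%. Most of these differences have the direction of all genes, and the villi list is the longer one, so wider peaks in villi are not particular to this set. Counted instead as base pairs under any H3K27me3 peak within 10 kb of the first start site, 28 of 31 genes had more in villi, beside 86.2% of all genes. By this count Wnt10a had 18335 bp in crypts and 19608 bp in villi, Wnt6 8818 and 11478, and Wnt11 9321 and 14552. Fzd10 had 4459 and 6156 bp, and Wif1 3524 and 4713. Wnt9b, with 2824 and 6832 bp, and Dkk1, with 2632 and 6743, remained over 2-fold higher in villi.

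**Figure D3:**
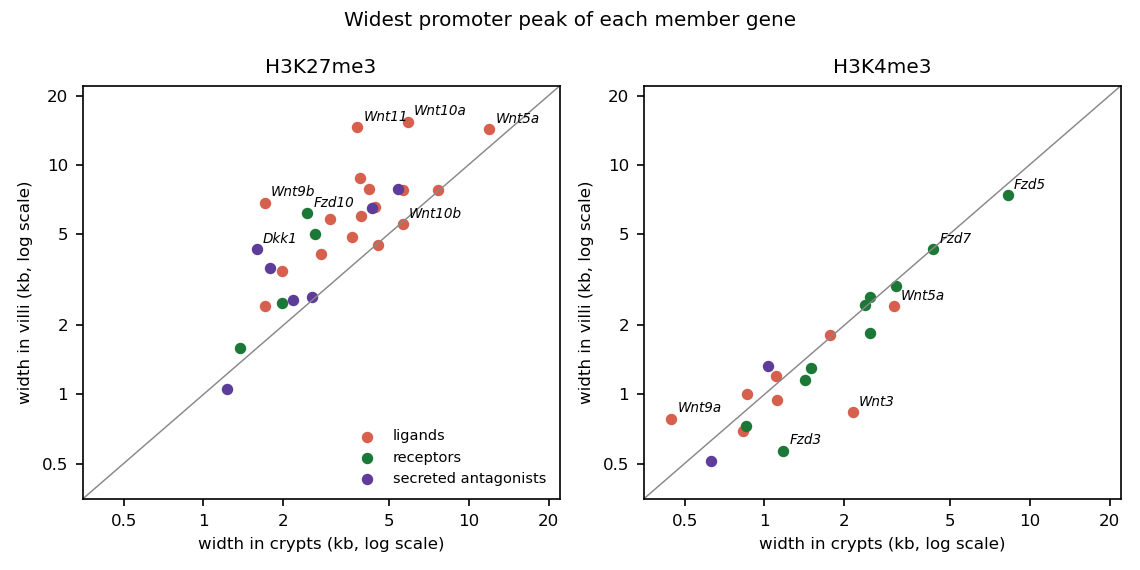
Width of the widest promoter peak of each gene in crypts (horizontal) and villi (vertical), in kb on log axes, for H3K27me3 (28 genes) and H3K4me3 (20 genes). The line marks equal widths. For H3K27me3, 25 points lie above the line, with Wnt10a, Wnt11 and Wnt5a at the top, and for H3K4me3 13 points lie below it.

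The place of the H3K27me3 peaks relative to the start site was also recorded. In crypts a peak covered a start site at 16 of the 28 genes (57.1%), peaks lay on both sides of an uncovered one at 8 (28.6%) and on 1 side at 4. Over all genes with such a peak these shares were 72.0%, 7.34% and 20.6%. In villi 21 of 29 genes (72.4%) had a covered start site, beside 74.2% of all genes, and 6 had peaks on both sides. Of the 12 genes with a free start site in crypts, Wnt6, Wnt9b, Fzd10 and Dkk1 had a covered one in villi, which is 33.3% and near the 31.7% of all genes. None of the 16 covered in crypts became free, beside 3.76% of all genes.

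Of the 8 genes with peaks on both sides in crypts, Wnt9a, Wnt9b, Fzd3, Fzd10 and Wif1 had H3K4me3 within 1 kb of that start site, and Wnt4, Wnt5b and Wnt6 did not. At Fzd10 (chr5:128600844-128604093), H3K27me3 peaks in crypts lay at -2679 to -220 bp and at 489 to 1876 bp from the start site, and an H3K4me3 peak of 849 bp at -287 to 561 bp. In villi 1 H3K27me3 peak of 6156 bp ran across the start site, and the H3K4me3 peak of 730 bp was still called inside it. Wnt9b followed the same course, with peaks of 1704 and 1120 bp in crypts and 1 of 6832 bp in villi, over an H3K4me3 peak of 1119 and 944 bp. At Wnt4 (chr4:137277489-137299726), with no promoter H3K4me3, the start site was free in both compartments between peaks of 1355 and 1704 bp in crypts and of 2415 and 2356 bp in villi.

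**Figure D4:**
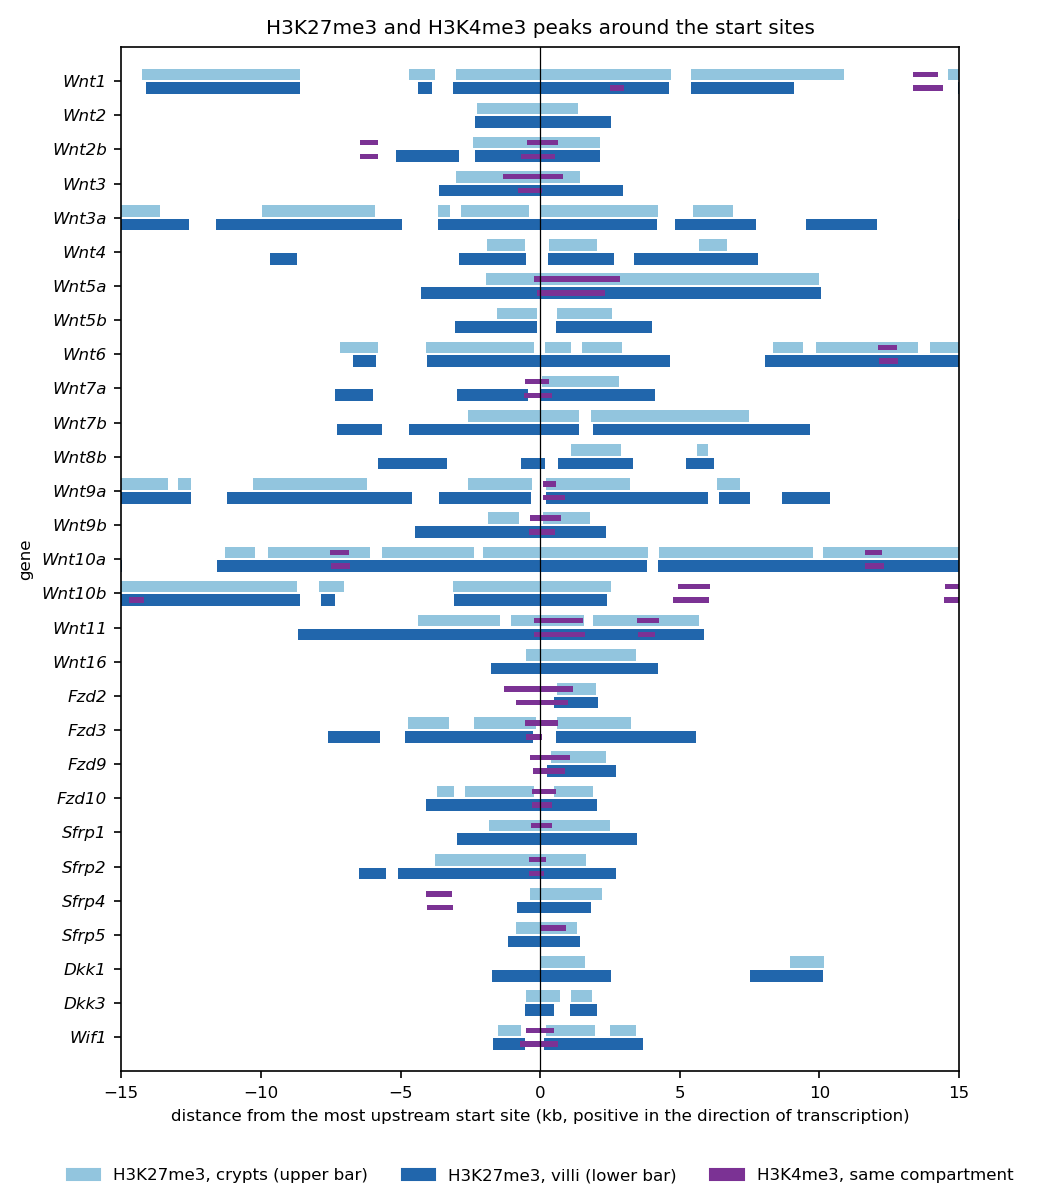
Peaks of H3K27me3 (light bars, crypts, above; dark bars, villi, below) and of H3K4me3 (purple, in the same compartment) within 15 kb of the most upstream start site of each gene with promoter H3K27me3, in kb along the direction of transcription. At Wnt6, Wnt9b, Fzd10 and Dkk1 the bars leave the start site free in crypts and cover it in villi, and at Wnt10a and Wnt11 separate bars of crypts meet 1 long bar of villi.

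4 pairs of ligand genes are neighbours on a chromosome. Wnt6 and Wnt10a stand 6193 bp apart on chromosome 1, and H3K27me3 peaks covered 87.7% of the stretch between them in crypts and 100% in villi. The villi peak of 15379 bp reached from Wnt6 into Wnt10a and was the single peak of the set to touch 2 of its genes. Wnt3a and Wnt9a on chromosome 11 are separated by 16175 bp, of which 57.2% was covered in crypts and 83.9% in villi. Between Wnt9b and Wnt3, 24328 bp apart on the same chromosome, 17.0% and 33.3% was covered. Only between Wnt10b and Wnt1 on chromosome 15, 11706 bp apart, was less covered in villi, with 59.9% in crypts and 57.3% in villi. H3K27me3 thus filled more of the space between the genes in villi for 3 of the pairs. No such share was computed for other neighbouring genes. Within 10 kb of the first start site, 86.2% of all genes with H3K27me3 there had more of it in villi, so this direction is not particular to the pairs.

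Gene bodies were covered by H3K27me3 to a median of 13.6% in crypts and 25.5% in villi, where the median of all genes was 0 in both. The covered share was higher in villi at 25 genes, lower at 5 and equal at 8. Over all genes it was higher at 3406, lower at 589 and equal at 17858, so the direction was that of most genes that differed. Wnt1, a short gene, was covered to 100% in both compartments and Wnt10a to 93.8% and 96.9%. The long Wnt3 was covered to 7.46% and 26.1%, and Wnt3a to 24.8% and 55.3%. Peaks over the gene body or promoter were found at 30 genes in crypts and 31 in villi, beside 15.1% and 19.1% of all genes.

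Wnt8b, a ligand of the developing nervous system, was the single gene with promoter H3K27me3 in only 1 compartment. In villi a peak of 885 bp with a score of 10.2 covered its start site (chr19:44492776-44493660) and another of 2696 bp with a score of 13.1, at 58.5% of the list by rank, began 640 bp downstream. In crypts the nearest peak began 1096 bp downstream, just outside the window, was 1794 bp wide and scored 10.7. A strong peak at the far end of the gene was shared, 5511 bp wide with a score of 35 in crypts and 5769 bp with 41 in villi. The peak over the start site in villi was close to the threshold of 10, and the call was lost when both lists were taken at the size of the shorter one. With a window of 5 kb the gene with H3K27me3 in villi only was Fzd1, and with the top 50% of each list by score it was Fzd2. A peak gained in villi was found for 4.16% of all genes without one in crypts, and for 3 of the 8 immune markers, whose part in it was not tested.

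The Frizzled receptors fell into 2 groups. Fzd1, Fzd4, Fzd5, Fzd6, Fzd7 and Fzd8 carried promoter H3K4me3 without promoter H3K27me3 in both compartments, and Fzd2, Fzd3, Fzd9 and Fzd10 carried both. The first group includes Fzd5, known as a receptor of Paneth cells, and Fzd7, known as the main receptor of intestinal stem cells. Their H3K4me3 peaks scored from 173.7 to 368.5 in crypts, with a median of 215.9, and from 108.9 to 332.7 in villi, with a median of 179.2. Over the 15 genes with both modifications in crypts, the scores ran from 10.9 to 100.2 with a median of 30.7, and over the 13 in villi from 11.3 to 101.7 with 36.7. The 2 ranges did not overlap in either compartment, with 6 genes in the first group. Over all genes they overlapped widely, from 10.0 to 1609.9 for H3K4me3 alone and from 10.0 to 576.6 for both in crypts, and from 10.0 to 1216.1 and from 10.0 to 442.3 in villi. The medians over all genes differed in the same direction, with values of 302.0 for H3K4me3 alone and 40.0 for both in crypts, and 222.3 and 43 in villi.

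**Figure D5:**
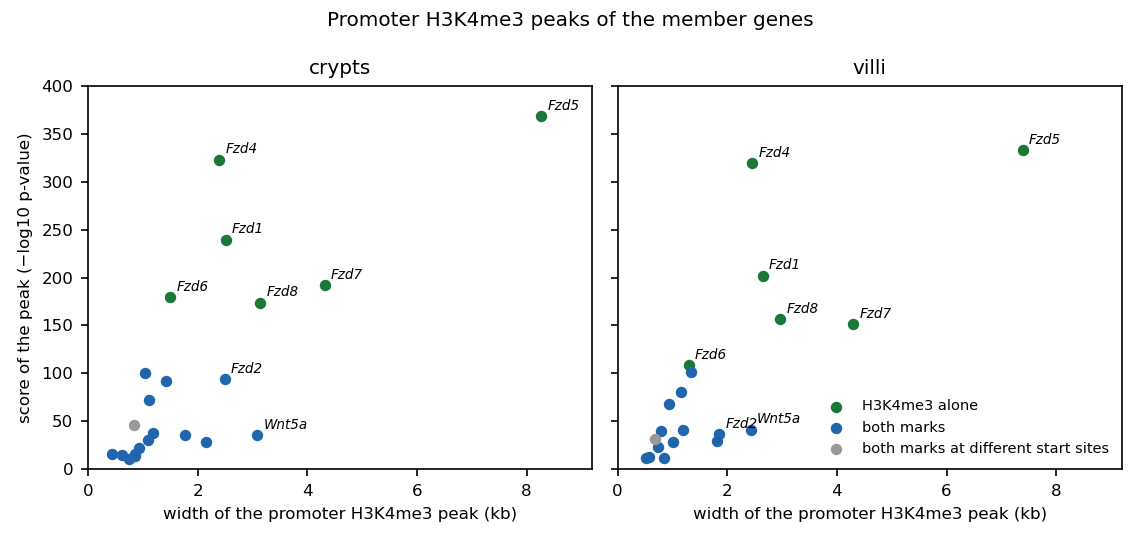
Width (horizontal, kb) and score (vertical, −log10 p-value) of the widest promoter H3K4me3 peak of each gene, in crypts and villi. Green points are genes with H3K4me3 alone, blue those with H3K27me3 at the same start site, grey Wnt5b. The 6 green points, all Frizzled genes, start at 173.7 in crypts and 108.9 in villi, and the highest blue points reach 100.2 and 101.7.

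Fzd5 (chr1:64730558-64737751) had the widest H3K4me3 peak of the set, 8262 bp in crypts and 7388 bp in villi, which ran from upstream of its start site over most of the gene. Fzd7 followed with 4315 and 4294 bp, Fzd8 with 3142 and 2964 bp, Wnt5a with 3086 and 2424 bp, and Fzd1 with 2510 and 2643 bp. By the wider of the 2 compartments these were the 5 widest, of which 4 were receptors without promoter H3K27me3. In villi alone Fzd4, with 2454 bp, stood ahead of Wnt5a, so that all 5 were such receptors. The Wnt5a peak had a score of 35.7 in crypts and 41.3 in villi. Outside the window, H3K27me3 was called inside Fzd8 in both compartments, 1008 and 996 bp wide. It was also called inside Fzd1 in villi, 1189 bp wide and beginning 1084 bp downstream of the start site, and in crypts the nearest peak to Fzd1 lay 621105 bp away.

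The 4 receptors with both modifications differed in where H3K27me3 lay. At Fzd2 it began 618 bp downstream of the start site in crypts and 498 bp in villi, with widths of 1379 and 1590 bp. At Fzd9 it lay on the downstream side too and covered 83.5% and 89.7% of the gene body. Fzd3, a receptor known from axon guidance, had peaks on both sides of a free start site. H3K27me3 thus left the start site free at these receptors in both compartments, with Fzd10 in villi as the exception.

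Promoter H3K4me3 peaks were kept from crypts to villi at 20 of 22 genes, and 98.2% of all genes with one in crypts kept it. Of these 20 peaks, 7 were wider and 13 narrower in villi, beside 40.8% and 59.1% of all genes, with a median log2 ratio of -0.19 beside -0.04. At Wnt3 the peak was 2150 bp in crypts and 839 bp in villi, with scores of 28.7 and 11.3, and in villi it ended within the promoter printed above, at position 103774199. At Fzd3 it was 1179 and 569 bp, with scores of 37.5 and 12.4. These were the 2 peaks at least 2-fold narrower in villi, a change seen at 0.929% of all genes, and no H3K4me3 peak of the set was 2-fold wider, beside 0.84%. At both genes H3K27me3 was wider in villi, 4437 to 6570 bp at Wnt3 and 2638 to 5012 bp at Fzd3. The part of tail cutting in the narrower H3K4me3 peaks of villi was not tested.

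Among the antagonists, Sfrp1 and Sfrp5 carried promoter H3K4me3 in crypts only, a loss found at 1.84% of all genes with a peak in crypts. At Sfrp1 (chr8:23411502-23449632) the crypts peak was 749 bp wide (chr8:23411183-23411931), covered the start site and scored 10.9, which put it at 98.1% of the list by rank. At Sfrp5 (chr19:42197971-42202252) it was 935 bp wide (chr19:42201321-42202255), scored 21.6 and stood at 84.2%. In villi the nearest H3K4me3 peaks lay 153642 bp and 30431 bp from the start sites. Both genes carried H3K27me3 across the start site in both compartments, 4305 and 6446 bp at Sfrp1 and 2175 and 2572 bp at Sfrp5. By these calls they had both modifications in crypts and H3K27me3 alone in villi. The part of tail cutting in this difference was not tested. The Sfrp1 peak was close to the threshold of the list and the Sfrp5 peak stood higher above it. Of 6 stem and Paneth cell markers, 4 carried H3K4me3 in crypts (Lgr5, Olfm4, Ascl2 and Smoc2) and 3 in villi, without Olfm4. The Paneth cell markers Lyz1 and Mmp7 carried it in neither compartment. The part of these cells in the result was not tested.

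Sfrp2 and Wif1 kept both modifications. The H3K4me3 peak of Sfrp2 was 626 and 515 bp with scores of 15.1 and 11.4, while Wif1 had the highest score of the genes with both modifications, 100.2 and 101.7, in peaks of 1035 and 1334 bp. Sfrp4, Dkk1 and Dkk3 had H3K27me3 alone. At Dkk1, the Lrp-blocking antagonist and itself a target of β-catenin, the H3K27me3 peak was 1587 bp in crypts and 4275 bp in villi, and it covered 41.7% and 67.0% of the gene body. Dkk2 and Dkk4 stood apart from the other antagonists in having no H3K27me3 at the promoter or in the gene. The nearest such peak to Dkk4 lay 349235 bp away in crypts and 347754 bp in villi, and to Dkk2 863341 and 862042 bp. Dkk4 carried H3K4me1, 1665 and 1576 bp wide, whereas Dkk2 carried none of the modifications.

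H3K4me1 differed at 3 promoters. It was kept at 29 genes, beside 90.2% of all genes with a peak in crypts, and was found in villi only at Wnt4 and Fzd10 and in crypts only at Fzd8, where 9.39% of all genes without a peak in crypts had one in villi and 9.83% of those with one in crypts had none in villi. These 3 genes depend on the settings, since 15 genes differed with the top 50% of each list by score, Wnt4 and Fzd10 not among them, and Fzd10 alone with a window of 5 kb. The Wnt4 peak was 550 bp with a score of 15 and lay 301 to 850 bp downstream of the start site, and in crypts the nearest began 4320 bp downstream. At Fzd10 the villi peak was 1469 bp with a score of 12.4, and the nearest crypts peak was 282518 bp away. At Fzd8 the crypts peak was 2632 bp with a score of 29.0, and in villi a peak of 1156 bp began 1484 bp downstream. None of the 8 immune markers had promoter H3K4me1 in either compartment. Widths of the kept peaks were even, 14 wider and 15 narrower in villi, beside 51.9% and 48.0% of all genes, and none differed 2-fold, which 6.83% (wider) and 6.40% (narrower) of all genes did. The kept peaks were of like size, where the medians of the set were 1502 and 1528 bp.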

How the data were processed

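ChIP-seq of crypts and villi gave 12 libraries, and the peak lists of 8 of them (H3K4me3, H3K4me1, H3K27me3 and H3K9me3) were used. The 2 H3K9me2 lists, of 6 and 3 peaks, were searched only for peaks over the genes described, and the inputs were not used here. The authors aligned reads to mm10 and dm6 with bowtie 1.1.2, removed duplicates with samblaster and called peaks with MACS2 2.1.1 at a p-value of 1e-10, with no pooling stated. Chromatin and antibody amounts and the beads differ between the methods and the labels. The deposited lists have no header, and the values of 10 or more in their score column were read as −log10 p-values of the authors' peak caller. A q-value on that scale is not excluded. The authors scaled signal tracks with deepTools 3.1, which were not used here.

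The start sites are those of protein-coding transcripts in GENCODE M21 (GRCm38), and a peak counted from an overlap of 1 bp. Width is that of the widest promoter peak, and scores were used only within a list. Of 169081 peaks, 169080 lay on named chromosomes and 0 ran past a chromosome end. Python 3.11.15, NumPy 2.4.6 and Matplotlib 3.10.9 were used, and the overlap code, tested on simulated data, called 11303 of 11303 start sites correctly. The members and the other gene lists were chosen with earlier results of these data known. All 38 genes are named by role. Widths, and for most of them positions, are given for those whose call differs between compartments, the 5 widest H3K27me3 and H3K4me3 peaks, and Wnt5a. Other genes were named after their values were seen. Alternatives covered the window, the start sites used, the overlap, the score and the list size.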

Additional observations from a re-analysis of the deposited data

How the results depend on the processing

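With 1 library per compartment and modification, no difference has an error from replicates, and the unknown depth limits what an absent peak means. No paired analysis was possible because each group has 1 library. Of 93 values recomputed over 18 results and 8 settings, 84 stayed within 1.5 times the reported count or close to the reported share, and 9 did not. With the top 50% of each list by score, H3K4me3 was called at 6 genes in crypts and 5 in villi, H3K4me1 at 19 in crypts, and H3K4me3 with H3K27me3 at 0 in crypts and 0 in villi, so the genes with both modifications rest on the lower-scoring H3K4me3 peaks. With a window of 5 kb, H3K9me3 was called at 1 gene in villi, Fzd9. H3K27me3 in villi only was called at 2 genes (Fzd2 and Wnt8b) with a window of 500 bp or at least 500 bp covered, and at 0 with both lists at the size of the shorter one. It was called at 1 gene other than Wnt8b with a window of 5 kb (Fzd1) and with the top 50% (Fzd2). Sfrp1 and Sfrp5 had H3K4me3 in crypts only under each setting but the top 50%, where neither was called in crypts. At the size of the shorter list Wnt3 had H3K4me3 in crypts only as well. The 3 alternatives for wider H3K27me3 peaks were chosen after seeing the data and gave 24, 25 and 28 genes wider in villi, beside 25. The top 50% (24) and the equal list size (25) only drop low-scoring peaks. They cannot change the width of a peak that is kept, so they are little check of it. The value of 28 came from base pairs under peaks within 10 kb of the start site.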

Other observations

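Calls also differed between compartments at a few genes around the Wnt pathway. Tle2, a transcriptional co-repressor of the Groucho family, had neither modification in crypts, and in villi an H3K4me3 peak of 397 bp and an H3K27me3 peak of 7409 bp. Nkd2, an inhibitor of the pathway inside the cell, had H3K4me3 (765 bp) in crypts only and H3K27me3 in both, 5017 and 5374 bp wide. Rspo2 had H3K27me3 in villi only, in a peak of 1163 bp. Of 20 genes of co-receptors and the R-spondin axis and 25 of the intracellular pathway, these were the 3 with a different call of H3K4me3 or H3K27me3.

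In the BMP family, which opposes Wnt signals along the crypt-villus axis, the differences went both ways. Bmp7 and Bmp8a had H3K27me3 in crypts only, 1396 and 1509 bp wide, with H3K4me3 in both compartments. Sost, a secreted antagonist of the Lrp co-receptors, had H3K27me3 in villi only, 6068 bp wide. Fstl1 had H3K4me3 in crypts only, 566 bp wide. Among Fgf ligands, Fgf18 had H3K27me3 in villi only, 4138 bp wide, with H3K4me3 of 1824 and 1585 bp. Each of these differences rests on single libraries.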
